A study of Solanum lycopersicum x Solanum pennellii and Solanum lycopersicum and Solanum pennellii with 305 samples.

Results

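Among the 29633 gene models counted in root tips, 150 transgressive genes were followed here: genes with nearly the same RNA level in both parents, and a level that differed most among the introgression lines (ILs) made from them. They were chosen by measured values. Counts were scaled to the library's total of reads on genes (CPM, counts per 1e6 reads) and averaged per genotype, and log2 of the mean plus 0.5 CPM was taken. A gene qualified with a mean over lines of at least 5 CPM, which 14749 genes reached, and a difference between the parents, M82 minus S. pennellii (PENN), of less than 0.25 on this log2 scale in either direction. The 5655 genes that met both limits were ranked by the SD over 70 lines, and the first 150 were taken. IL4-4, IL12-3, IL6-2, IL2-5 and IL3-5 took no part in the ranking, though their levels entered the mean over all 75 lines. The closeness of the parents and the spread over the 70 lines are therefore given only as a description, while the 5 lines outside the ranking and the differences between libraries of 1 genotype could be tested.

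An IL carries a segment of a wild donor genome in the background of a cultivated parent, so that a set of lines covers the donor genome piece by piece. Expression is called transgressive when a line lies outside the range of both parents, as happens when the parents hold alleles of opposite effect at several loci and a line inherits only some of them. A difference of a gene that lies inside the segment can come from the gene's own regulatory sequence, in cis, while a gene elsewhere in the genome can be reached only in trans, through a diffusible product of the segment.

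The libraries came from the study's 75 ILs of the wild tomato S. pennellii in the cultivated tomato S. lycopersicum cv. M82, from PENN (3 libraries) and from M82 (4 libraries). PENN is S. pennellii itself, although the cultivar entry of its labels reads M82. The terminal 1 cm of 7 to 14 seedling roots, taken 3 to 4 days post-germination, was pooled into each library, and most genotypes had 4 libraries, in 4 growth cycles that are also the 4 replicate numbers and sequencing pools. No agent was applied, and a line stood for its segment through a single inbred stock, so a segment and anything else particular to that stock cannot be told apart. In bulk tissue, fewer cells of a type and less RNA per cell also cannot be told apart. The files name genes only by identifier, so the members' functions, and the markers that would check the labelled tissue, were not looked up. Between 683199 and 11338423 reads per library fell on genes, with a median of 4303828. IL9-1-3 replicate 2, IL9-2 replicate 1 and IL7-3 replicate 1 stood apart from the other libraries of their genotype. They had 72, 69 and 63 of the 150 genes more than 1 log2 unit from the median of those other libraries, where the median library had 8.

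By construction, the chosen genes varied more than the other 5505 that met the limits. The SD over the 70 lines ran from 0.32 to 1.67 log2 units in the transgressive genes, with a median of 0.37, and from 0.05 to 0.32 in the others, with a median of 0.13. At the edge of the ranking, Solyc07g039320 was the last gene inside (SD 0.3158) and Solyc05g005170 the first outside (SD 0.3154), so the boundary is a cut through a continuous range. The parental limit likewise passed between Solyc12g006640, inside at a difference of 0.249, and Solyc12g014310, outside at -0.251, and the minimum level between Solyc11g065600, inside at 5.06 CPM, and Solyc01g087190, outside at 4.99 CPM. With the parental limit dropped, 1441 genes met the level and reached the SD of the last member. SlPAP27, Solyc07g008570, the acid phosphatase gene the study followed up, had an SD of 0.44 and was set aside by its parental difference of -1.85.

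Replicate libraries of the transgressive genes also spread widely, which the rule did not use directly. The SD between libraries of 1 genotype had a median of 0.42 log2 units in the transgressive genes and 0.23 in the others. The spread over lines was a median of 1.89 times the SD within genotypes divided by the square root of 4, against 1.15 times in the others. The SD within genotypes also holds differences between growth cycles that all genotypes shared. The divided value is therefore not the scatter of line means expected from replicates alone. Since that ratio has the ranked SD on top, the order of these medians is part of the choice. The ratio was under 1.5 for 31 of the 150, with a lowest value of 0.671. Such a low ratio need not mean little spread over lines. Solyc05g050850, with an SD of 0.52 over lines and 1.54 within genotypes, lay 1.64 and 1.98 log2 units above replicate 1 in replicates 3 and 4. The transgressive genes were also the lower expressed ones, with a median of 13.2 CPM (5.06 to 503 CPM) against 37.6 CPM, and their part in the spread was not tested.

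**Figure D1:**
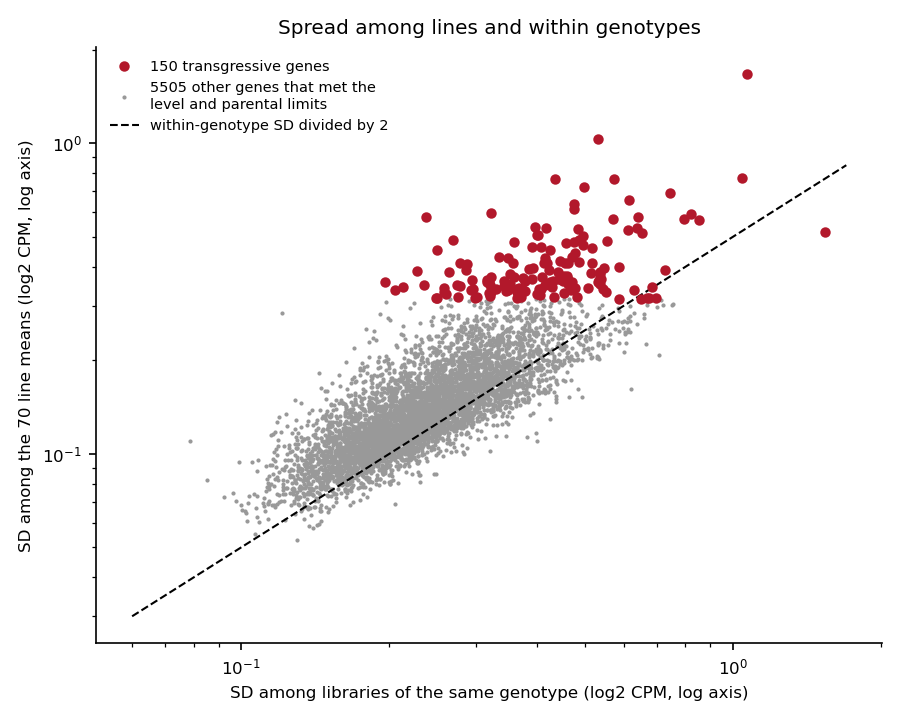
Each point is a gene that met the level and parental limits, red for the 150 transgressive genes and grey for the other 5505, with the SD among libraries of the same genotype on the x axis and the SD among the 70 line means on the y axis (log2 CPM, both axes logarithmic). The dashed line is the within-genotype SD divided by 2. The red points fill the top of the cloud by construction, from 0.32 upward, and also lie to the right of most grey points.

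The line farthest from the median of the lines lay a median of 1.25 log2 units away, with a range of 0.66 to 8.93. It was the highest line for 91 genes and the lowest for 59. For 97 of the 150 (64.7%), every library of the farthest line lay outside the range of the 7 parental libraries, against a background of 26.8% over the 5655 genes that met the limits. At least 1 line lay more than 1 log2 unit above both parents for 48 genes and below both for 82, with 21 genes counted in both groups and 41 in neither. The farthest line was taken from the median of the lines, and these last counts from the parents. Both parents lay off that median in some genes. M82 and PENN had 8.78 and 10.4 CPM for Solyc02g036370 (median line 4.83) and 2.51 and 2.76 CPM for Solyc03g116930 (median line 5.27). By the study's methods each parent was grown on 4 plates and a line on 2, and its part was not tested. These shares follow from a ranking by spread and are no test of it.

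Of the 70 lines, 38 were farthest for at least 1 gene, with IL9-3-1 farthest for 24, IL9-1-3 for 18, IL2-3 for 12 and IL6-1 for 11. Without its replicate 2, IL9-1-3 was farthest for 2 genes and IL9-3-1 for 26. Low levels were gathered in other lines: 22 genes lay more than 1 log2 unit below both parents in IL9-2-5, 21 in IL11-4 and 19 in IL12-1-1, and these lines held 0, 0 and 1 gene as far above. The heat map of the 150 genes shows these lines as columns with long runs of 1 colour.

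**Figure D2:**
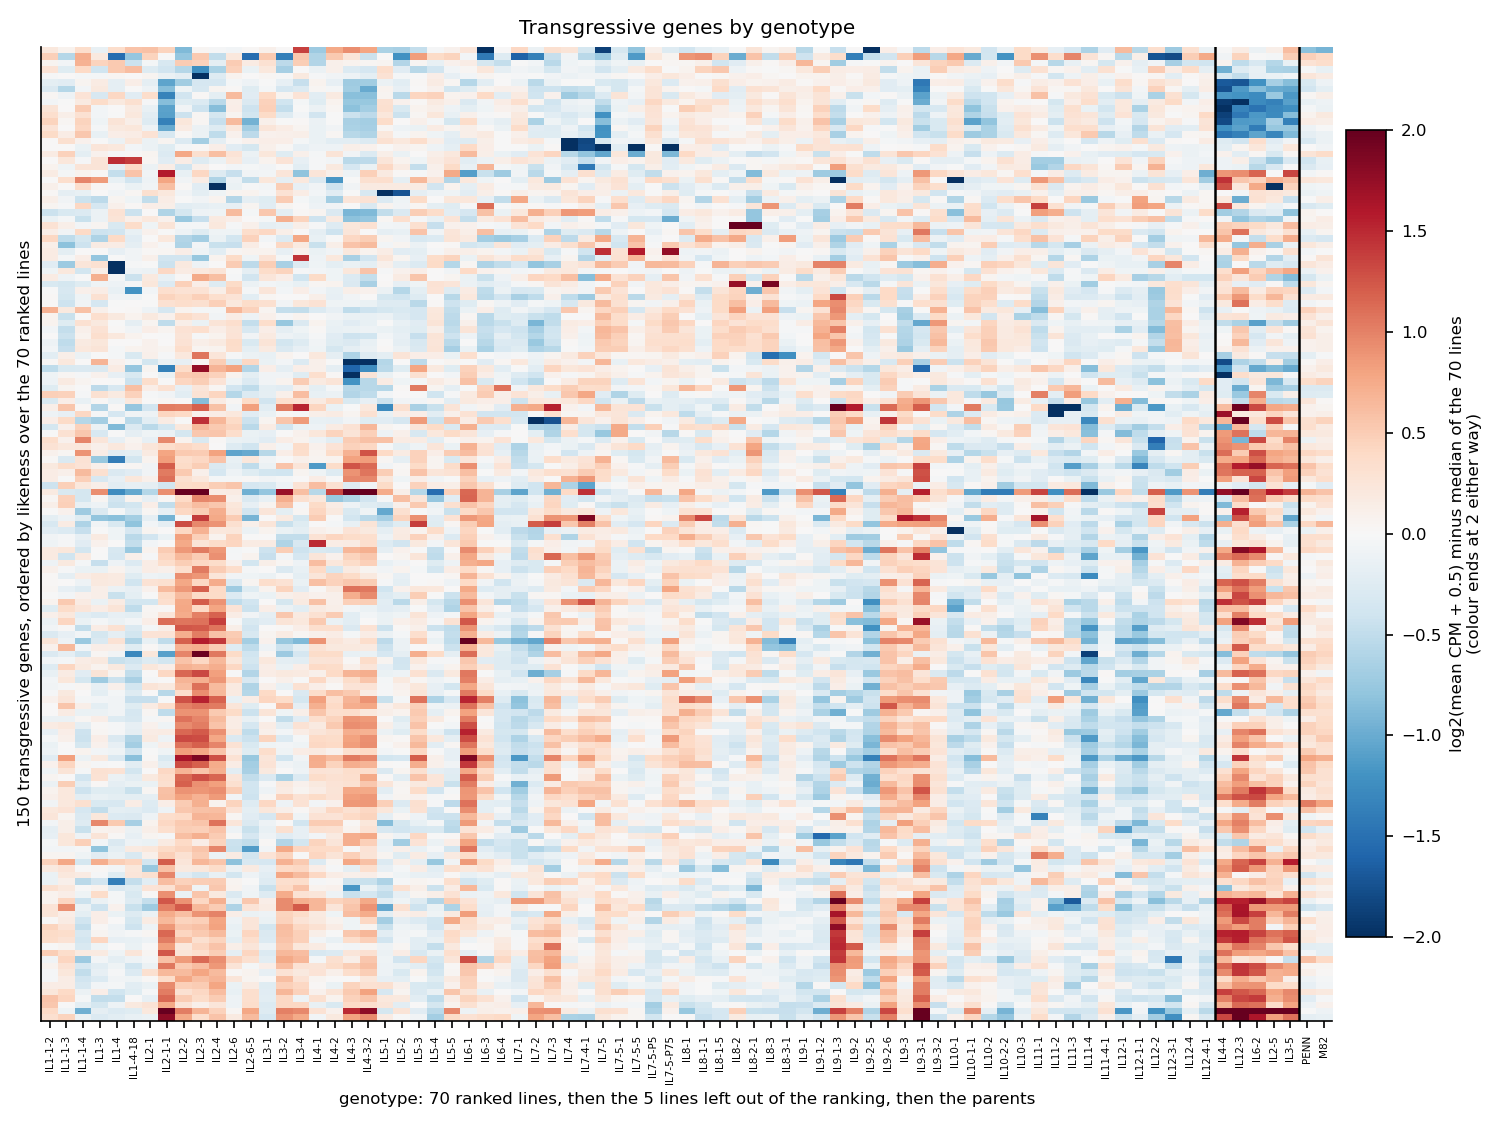
Rows are the 150 genes, ordered by likeness over the lines, and columns are the 70 ranked lines, the 5 lines left out of the ranking, PENN and M82. Colour gives log2 of mean CPM plus 0.5, minus the median of the 70 lines, with the scale ending at 2 in either direction. By the rule the 2 parents are alike in colour, though not always near the median of the lines. IL9-3-1, IL2-3, IL6-1, IL4-4, IL12-3 and IL6-2 show long blocks of 1 colour.

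The position of a gene relative to the segment was not part of the rule. A gene was taken as inside a segment by the cis or trans label that the authors' table gives it or its nearest labelled neighbours in that line. The farthest line carried the segment that holds the gene itself for 34 of the 150 (22.7%), against 16.5% of the other genes that met the limits. The remaining 116 were counted as outside. Among them is Solyc00g068970, which is not placed on a chromosome, so its position relative to any segment is unknown. Of the 232 combinations of a transgressive gene and a line that carries its segment, 53 (22.8%) were more than 1 log2 unit from the median of the lines, 34 below and 19 above it. Of the 10268 other combinations, 289 (2.81%) were as far, 103 below and 186 above. Among the other 5505 genes, 52 of 7728 combinations inside a segment (0.673%) and 58 of 377622 others (0.0154%) were as far. A higher share inside segments was thus not particular to the transgressive genes, and the distances use values that the ranking used. Reads inside a segment were mapped to S. pennellii sequence in that line and to M82 sequence in others, and its part in the lower levels was not tested. By the study's methods, counts at the ends of a segment may be unreliable, in IL7-5-P75 among others.

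Several genes stood out in every line that carried their own segment. Solyc07g006890 on chromosome 7 had 41.2, 21.4, 36.0 and 38.0 CPM in IL7-4, 48.0, 49.4, 72.6 and 40.5 CPM in IL7-4-1, 43.9, 30.0, 42.3 and 58.0 CPM in IL7-5-5 and 45.3, 38.2, 28.3 and 37.0 CPM in IL7-5-P75, against 211, 186 and 157 CPM in PENN and 213, 166, 154 and 162 CPM in M82. With IL7-5, the 5 lines that carry the gene had means of 34.1 to 52.6 CPM and the other 65 ranked lines 143 to 242 CPM, so the lines fell into separate ranges while both parents sat in the upper one. Solyc08g077340 on chromosome 8 showed the opposite direction, with 28.4, 33.5, 46.1 and 15.9 CPM in IL8-2 and 34.8, 38.8, 32.8 and 37.4 CPM in IL8-2-1, against 3.59, 5.87 and 5.301 CPM in PENN and 4.22, 7.44, 3.72 and 3.88 CPM in M82. Every library of both lines that carry it exceeded every parental library, and the other 68 lines had means of 3.06 to 7.15 CPM.

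Other genes were low in the 1 ranked line that carries them, in 1 case near 0. Solyc11g013110 on chromosome 11 had 0.488, 0.342, 0.544 and 0.721 CPM in IL11-2, the 1 ranked line that carries it, against 20.8, 37.1 and 19.1 CPM in PENN and 30.9, 22.7, 25.8 and 25.7 CPM in M82. The other 69 lines had means of 15.6 to 34.1 CPM. Solyc01g107780 on chromosome 1 had 6.65, 9.104, 17.1 and 10.4 CPM in IL1-4, against 117, 100.5 and 107 CPM in PENN and 147, 122, 119 and 115 CPM in M82, and no other ranked line had a mean under 91.4 CPM. In both genes 1 line thus stood apart from a narrow range that held the parents and all other ranked lines.

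Genes placed inside a segment did not all keep 1 level across the lines of that segment. Solyc07g005240 was placed in the segment of 5 lines by its own label or those of its neighbours. It had 32.2, 23.4, 29.6 and 36.8 CPM in IL7-5-P75 and 29.7, 30.0, 21.7 and 26.0 CPM in IL7-5-5, but 9.66, 9.06, 6.61 and 8.54 CPM in IL7-4 and 5.47, 8.202, 5.54 and 6.41 CPM in IL7-4-1, against 9.34, 6.68 and 8.83 CPM in PENN and 6.50, 10.8, 6.38 and 10.6 CPM in M82. IL7-5 averaged 24.5 CPM, so the IL7-5 lines were high and the IL7-4 lines overlapped the parents. Whether the segments of the IL7-4 lines reach this gene was not tested, since a label of neighbours does not locate the end of a segment. Solyc10g084200 on chromosome 10 stayed near the parents where it lay inside the segment, with means of 57.6 and 68.7 CPM in IL10-2 and IL10-3, and was near 0 in IL1-4, which carries a piece of chromosome 1, at 0.875, 0.714, 0.720 and 1.24 CPM, against 78.6, 54.9 and 41.5 CPM in PENN and 58.5, 47.2, 59.5 and 53.3 CPM in M82. IL1-4-18, a line whose name shares that stem, had 52.0, 36.1, 44.8 and 61.2 CPM, within the range of the parents but for its lowest library.

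The widest spread over the lines belonged to Solyc00g068970, a gene model not placed on a chromosome. It was almost unread in IL11-2 (0, 0, 0.181 and 0.240 CPM, 2 reads in all) and in IL11-3 (0, 0.530, 0 and 0.158 CPM, 5 reads in all), against 283, 413 and 242 CPM in PENN and 191, 287, 112 and 633 CPM in M82. No other ranked line had a mean under 121 CPM. At the upper end single libraries set the mean. IL9-1-3 had 187, 8016, 471 and 280.0 CPM, IL9-2 had 3127, 90.5, 237 and 104 CPM and IL7-3 had 2739, 193, 219.9 and 319 CPM, each with 1 library far above the others and the rest within or near the range of M82. Without replicate 3, without replicate 4 or with the mean of log2 values in place of log2 of the mean, another gene headed the ranking. Across the 70 lines the gene outside the 150 with the most similar means was Solyc11g045440 (Pearson r 0.95), whose parents differed by 3.65 log2 units.

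Other members lay far from the parents in lines whose segment does not hold them. Solyc05g012230 on chromosome 5 had 38.5, 35.6, 43.6 and 29.0 CPM in IL4-3, 33.2, 33.3, 38.3 and 26.7 CPM in IL4-3-2 and 24.0, 42.1, 25.2 and 31.1 CPM in IL2-2, and 2.07, 0.537, 1.02 and 0.246 CPM in IL11-4, against 12.9, 10.5 and 8.305 CPM in PENN and 12.7, 10.8, 6.64 and 9.06 CPM in M82. The 3 high lines lay above and IL11-4 below every parental library. Solyc05g005130 had 1.85, 0, 5.32 and 3.09 CPM in IL12-3-1 and 2.41, 3.33, 1.52 and 3.57 CPM in IL12-2, and 19.0, 21.4, 17.7 and 20.7 CPM in IL8-1-1, against 8.38, 16.4 and 17.8 CPM in PENN and 14.9, 17.0, 10.6 and 11.22 CPM in M82. The first pair of lines lay below every parental library, and IL8-1-1 overlapped the upper end of the parents. The highest mean of Solyc05g005130 was that of IL11-3, at 20.4 CPM (SD 5.55, n = 4). For Solyc05g012230 the most similar gene outside the 150 was Solyc03g097460 (Pearson r 0.69 over the 70 lines).

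Solyc08g029000 on chromosome 8 had 21.6, 12.95, 19.1 and 11.22 CPM in IL7-4-1 and 14.7, 12.06, 14.98 and 12.5 CPM in IL9-3, against 4.55, 2.03 and 6.36 CPM in PENN and 2.92, 4.76, 2.66 and 5.18 CPM in M82, and no library of either line reached down to a parental library. IL11-1 had 31.6, 4.49, 10.25 and 9.56 CPM, with 1 library between the values of M82. The lines that carry its own segment, IL8-1 and IL8-1-1, lay at 8.39 to 11.07 CPM. Solyc03g116930 combined both kinds of difference, with 17.4, 17.0, 13.3 and 9.76 CPM in IL3-4, which carries the gene, and 0.170, 0.852, 0.572 and 0.251 CPM in IL6-3, which does not, against 0, 2.63 and 5.65 CPM in PENN and 2.27, 2.69, 1.86 and 3.24 CPM in M82. The IL3-4 libraries lay above all 7 parental libraries, while those of IL6-3 lay below all of M82 but above the PENN library at 0.

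Some of the largest spreads rested on replicates that did not repeat. Solyc11g056480 had 2.91, 62.1, 1.43 and 3.995 CPM in IL9-1-3 and 1.26, 1.86, 0.240 and 0.316 CPM in IL11-3, against 3.35, 6.89 and 0.707 CPM in PENN and 4.87, 3.52, 3.46 and 4.31 CPM in M82. Its high line was high in the replicate 2 library alone. Solyc07g041680 had 96.5, 72.9, 53.7 and 16.6 CPM in IL9-3-1 and 132, 16.1, 24.1 and 19.1 CPM in IL2-1-1, against 14.9, 9.72 and 10.96 CPM in PENN and 11.37, 17.0, 7.44 and 12.7 CPM in M82. Of each line, 3 libraries exceeded every parental library by unequal amounts, and 1 lay among those of M82.

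Many members varied together. When the 150 genes were grouped by the correlation of their means over the 70 lines (average linkage, joined at a mean correlation of at least 0.5), 81 fell into 4 sets of at least 7 genes, with 44, 20, 10 and 7 genes, and 69 fell into none. The sets were made from these values and carry no test. Their genes were spread over 12, 10, 6 and 5 chromosomes, and the farthest line carried the gene's own segment for 5, 1, 0 and 0 of them. The median correlation between genes of a set over the 70 lines was 0.65, 0.70, 0.68 and 0.77, against 0.13 over all pairs of the 150. Deviations of single libraries from their genotype gave medians of 0.39, 0.65, 0.56 and 0.78 in the same sets and 0.09 over all pairs. The line means average these same libraries and carry their scatter, and the deviations keep any difference between growth cycles, so the agreement is no separate evidence for the sets. Over the 11175 pairs of genes, the correlation across lines and the correlation within genotypes were themselves correlated (r 0.73, and 0.73 without IL9-1-3 replicate 2), with the points sharing genes and libraries.

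In the first set, of 44 genes, the mean distance from the median of the lines was 0.92 ± 0.20 log2 units in IL6-1, 0.90 ± 0.23 in IL2-3, 0.82 ± 0.19 in IL2-2 and 0.74 ± 0.27 in IL2-4 (SD, n = 4 libraries each). It was -0.71 ± 0.13 in IL11-4, -0.68 ± 0.20 in IL12-1-1 and -0.67 ± 0.12 in IL9-2-5, against 0.27 ± 0.07 in PENN (SD, n = 3) and 0.23 ± 0.20 in M82 (SD, n = 4). All libraries of the 4 high lines were above the highest parental library, and all of the 3 low lines below the lowest. IL9-3-1, at 0.63 ± 0.13, also lay above the parents in all libraries, and IL9-2-6, at 0.53 ± 0.16, and the left-out IL12-3, at 0.72 ± 0.37, had high means with some libraries among the parents.

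Solyc07g052670 of this set had 104, 130.0, 163 and 184 CPM in IL6-1 and 139, 177, 176 and 88.5 CPM in IL2-3, and 14.3, 17.7, 14.3 and 14.7 CPM in IL9-2-5, against 86.7, 60.6 and 57.8 CPM in PENN and 82.2, 59.97, 47.3 and 70.1 CPM in M82. Solyc08g082190 had 17.3, 16.8, 27.5 and 26.2 CPM in IL6-1, and 1.097, 0.798, 3.02 and 1.63 CPM in IL8-3-1, a line that carries the gene, against 7.90, 7.70 and 3.18 CPM in PENN and 7.15, 5.17, 6.11 and 7.12 CPM in M82. Solyc11g066140 had 43.5, 29.4, 31.5 and 22.7 CPM in IL2-3 and 31.5, 34.999, 26.3 and 32.7 CPM in IL6-1, and 4.08, 3.68, 4.51 and 4.65 CPM in IL12-1-1, against 14.4, 17.4 and 14.1 CPM in PENN and 13.97, 11.6, 13.02 and 14.45 CPM in M82. In each, the high lines lay above and the low line below all parental libraries. Solyc02g077880, which lies inside the segment of IL2-3, had 135, 118, 191 and 71.7 CPM there and 6.64, 3.49, 16.0 and 8.36 CPM in IL11-4, against 41.0, 51.7 and 47.9 CPM in PENN and 33.1, 40.9, 38.0 and 63.9 CPM in M82.

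The second set, of 20 genes, was high in IL9-3-1 at 1.01 ± 0.62 and in IL2-1-1 at 0.77 ± 0.90 (SD, n = 4), against -0.03 ± 0.25 in PENN and -0.02 ± 0.17 in M82. Its libraries were uneven, at 1.58, 1.496, 0.65 and 0.33 in IL9-3-1 and 1.99, -0.19, 0.75 and 0.53 in IL2-1-1, and 1 library of IL2-1-1 fell among the parents. IL9-1-3 was high through its replicate 2 alone, with libraries at -0.26, 2.53, -0.43 and -0.30. The fourth set, of 7 genes, was low in IL2-1-1 at -1.24 ± 0.88, against -0.10 ± 0.51 in PENN and -0.02 ± 0.25 in M82. Its IL2-1-1 libraries lay at -2.29, -0.14, -1.39 and -1.15, with replicate 2 among the parents. The third set, of 10 genes, was higher in IL7-5 at 0.51 ± 0.11 (SD, n = 3) and lower in IL12-2 at -0.68 ± 0.22, against 0.10 ± 0.39 in PENN and 0.10 ± 0.14 in M82.

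Solyc01g007620 of the second set had 103, 101, 24.1 and 13.5 CPM in IL9-3-1 and 153, 14.4, 38.6 and 21.2 CPM in IL2-1-1, against 11.7, 10.13 and 5.65 CPM in PENN and 9.42, 10.13, 4.25 and 10.4 CPM in M82. All 8 line libraries exceeded the 7 parental ones, with wide differences among the libraries of each line. The gene outside the 150 most similar to it over the lines was Solyc04g016270 (Pearson r 0.93).

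**Figure D3:**
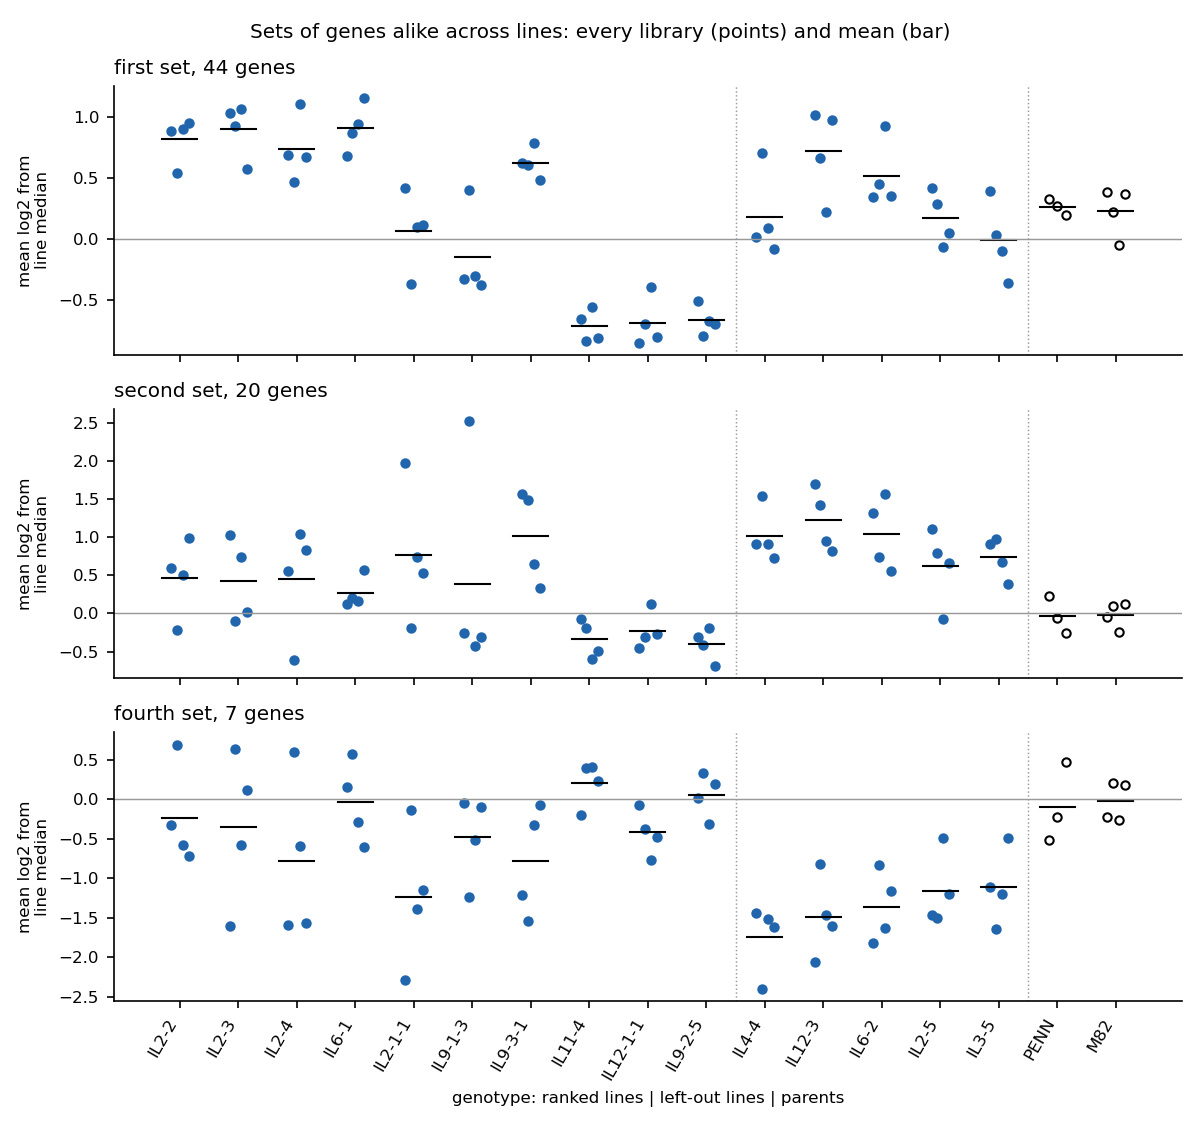
Mean log2 distance from the median of the 70 lines over the genes of the first, the second and the fourth set, for each library (points) with the mean as a bar, in 10 ranked lines, the 5 left-out lines and the parents (open points). The second set lies above and the fourth set below most parental libraries in the 5 left-out lines, and single libraries of IL9-1-3 and IL2-1-1 lie far from the rest of their line.

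The 5 lines kept out of the ranking asked whether genes chosen by their spread elsewhere also differed from M82 there. Line and M82 were compared with edgeR's quasi-likelihood test over all 19591 genes that passed the filter on low counts, all 150 among them, with a call made where the adjusted p (Benjamini-Hochberg) did not exceed 0.01. The 5 comparisons share the M82 libraries, which were also used to choose the genes. The 5 lines entered the minimum level, so a gene close to 5 CPM could qualify through a rise there. At least 1 line called 61 of the 150 genes, or 40.7%, against 32.9% of all genes tested, with 32 called in 1 line, 16 in 2, 12 in 3 and 1 in 4, while 89 were called in none. The shares called in at least 2, 3 and 4 lines were 19.3%, 8.67% and 0.667% of the 150, against 11.46%, 4.35% and 1.85% of all genes.

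In IL4-4, 33 of the 150 (22.0%) were called, against 20.0% of all genes tested. Of these 22 rose (background 8.94%) and 11 fell (2165 of all 19591). In IL12-3, 38 (25.3%) were called, against 15.5% of all genes, and 27 rose (background 7.94%) and 11 fell (background 7.53%). In IL6-2, 21 (14.0%) were called, against 7.58%, and 18 rose (background 4.44%) and 3 fell (background 3.14%). IL2-5 called 5 (3.33%, against 4.66%), 1 of which rose (background 2.99%) and 4 fell (background 1.66%). IL3-5 called 7 (4.67%, against 3.53%), 5 of which rose (background 2.13%) and 2 fell (background 1.4%). In this fit the share called was above the background in IL12-3 and IL6-2 and near it in IL4-4, IL2-5 and IL3-5. The nearness in the last 3 lines depended on the fit. DESeq2 on a line and M82 alone called 33.3% of the 150 against 18.8% of all genes in IL4-4, 13.3% against 6.55% in IL2-5 and 20.7% against 6.13% in IL3-5, and edgeR on the same pairs 31.3% against 19.8%, 8.67% against 4.62% and 17.3% against 6.12%. The called members were more often higher than lower in IL4-4, IL12-3 and IL6-2, but in IL4-4 the higher ones were 50.0% of those called without M82 replicate 3 and 52.6% without its own replicate 2. The median log2 differences of the 150 were 0.08, 0.27, 0.19, 0.10 and -0.06 in IL4-4, IL12-3, IL6-2, IL2-5 and IL3-5, against 0.03, 0.02, 0.00, 0.00 and 0.00 over all genes tested. Among the 14749 genes at 5 CPM or more the share called was 22.6%, 16.4%, 7.82%, 4.41% and 3.42% in the same order.

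Single libraries moved these counts. IL4-4 called 19 (12.7%, against 10.7% of all genes) without its replicate 2 and 20 (13.3%, against 15.1%) without M82 replicate 3. IL12-3 called 15 (10%, against 7.36%) without its replicate 1 and 24 (16.0%, against 9.42%) without M82 replicate 3. IL6-2 called 8 (5.33%, against 4.24%) and 7 (4.67%, against 3.01%) without its replicates 1 and 3, and 13 (8.67%, against 5.93%), 11 (7.33%, against 4.07%) and 12 (8.00%, against 5.76%) without M82 replicates 2, 3 and 4. IL2-5 called 10 (6.67%, against 7.36%) without its replicate 3, and IL3-5 called 4 (2.67%, against 1.66%) without its replicate 2. The share in IL4-4 fell below the background without M82 replicate 3, and those in IL12-3 and IL6-2 came closer to it without replicate 1 of each line.

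**Figure D4:**
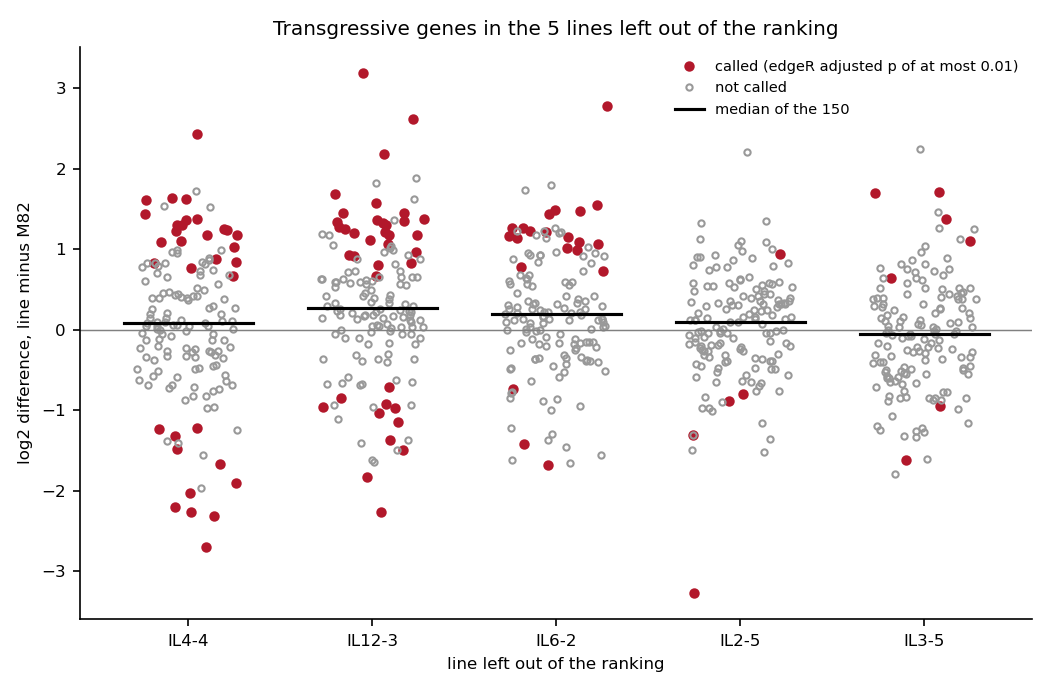
Log2 difference of each of the 150 genes, line minus M82, in the 5 lines left out of the ranking, with genes called by edgeR (adjusted p of at most 0.01) filled and the median as a bar. The medians lie between -0.06 in IL3-5 and 0.27 in IL12-3, and called genes are found on both sides of 0 in every line.

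The largest rise in IL12-3 and in IL6-2 was that of Solyc01g007620, the second-set gene already high in IL9-3-1 and IL2-1-1. It had 152, 118, 51.9 and 20.1 CPM in IL12-3 (log2 difference 3.19, SE 0.68, adjusted p = 0.00012, edgeR) and 92.4, 43.4, 85.1 and 21.6 CPM in IL6-2 (log2 difference 2.78, SE 0.69, adjusted p = 0.00194), against 11.7, 10.13 and 5.65 CPM in PENN and 9.42, 10.13, 4.25 and 10.4 CPM in M82. Every library of both lines lay above the parents. The call in IL6-2 was lost without its replicate 1 (adjusted p = 0.0155), without its replicate 3 (adjusted p = 0.0154) and without M82 replicate 3 (adjusted p = 0.0136).

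Solyc05g012230 rose in IL12-3 with 60.9, 125, 35.004 and 40.5 CPM (log2 difference 2.62, SE 0.30, adjusted p = 6.08e-13, edgeR) and in IL4-4 with 28.1, 16.6, 21.9 and 25.4 CPM (log2 difference 1.25, SE 0.32, adjusted p = 0.0012), against 12.9, 10.5 and 8.305 CPM in PENN and 12.7, 10.8, 6.64 and 9.06 CPM in M82. Solyc11g013110, near 0 in IL11-2, rose in IL4-4 with 70.7, 71.5, 74.9 and 104 CPM (log2 difference 1.63, SE 0.22, adjusted p = 1.45e-09), against 20.8, 37.1 and 19.1 CPM in PENN and 30.9, 22.7, 25.8 and 25.7 CPM in M82, and that line lies outside the gene's own segment. In both genes the line libraries did not overlap those of M82, and the calls held without each library in turn.

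Solyc10g005020 rose in 3 lines by like amounts, with 15.8, 21.4, 16.6 and 20.5 CPM in IL4-4 (log2 difference 1.62, SE 0.26, adjusted p = 3.69e-07, edgeR), 15.03, 19.6, 9.79 and 20.4 CPM in IL12-3 (log2 difference 1.32, SE 0.27, adjusted p = 7.37e-05) and 14.8, 18.9, 21.1 and 15.9 CPM in IL6-2 (log2 difference 1.49, SE 0.28, adjusted p = 1.59e-05), against 5.75, 5.67 and 8.13 CPM in PENN and 7.80, 5.38, 6.11 and 5.61 CPM in M82. All 12 libraries lay above the 7 parental ones. Solyc09g011980 rose in IL3-5 with 12.35, 13.5, 10.4 and 20.0 CPM (log2 difference 1.71, SE 0.32, adjusted p = 3.28e-05) and in IL6-2 with 12.6, 15.5, 13.1 and 6.83 CPM (log2 difference 1.55, SE 0.35, adjusted p = 0.000528), against 3.35, 5.47 and 4.24 CPM in PENN and 2.598, 3.31, 6.38 and 3.88 CPM in M82. It was also called in IL12-3, a call lost when IL12-3 replicate 1 or 2 or M82 replicate 1, 2 or 4 was left out (adjusted p up to 0.0308). The mean of Solyc09g011980 over all lines was 5.11 CPM, close to the minimum. These lines entered that mean, so its rises in them are no independent test.

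Solyc12g006240, of the fourth set, was called in the most lines. It fell in IL4-4 (log2 difference -1.48, SE 0.39, adjusted p = 0.0016, edgeR), IL12-3 (log2 difference -1.499, SE 0.41, adjusted p = 0.00339), IL6-2 (log2 difference -1.68, SE 0.46, adjusted p = 0.00525) and IL3-5 (log2 difference -1.61, SE 0.39, adjusted p = 0.00208). Its libraries had 2.26, 1.05, 2.41 and 3.06 CPM in IL4-4 and 2.47, 1.42, 1.91 and 3.08 CPM in IL3-5, against 4.55, 5.27 and 7.24 CPM in PENN and 5.85, 8.89, 2.66 and 6.69 CPM in M82, so M82 replicate 3 lay among the lines. All 4 calls were lost without M82 replicate 2, with adjusted p = 0.0231 in IL4-4, 0.0351 in IL12-3, 0.0398 in IL6-2 and 0.0332 in IL3-5, and the log2 differences then stayed between -1.42 and -1.22. Leaving out replicate 2 of IL4-4, replicate 1 or 2 of IL12-3, replicate 1 or 2 of IL6-2, M82 replicate 4 for IL6-2, or replicate 2 of IL3-5 also ended that line's call (adjusted p up to 0.0498). DESeq2 on the line and M82 alone did not call it in IL12-3 (adjusted p = 0.0190) or IL6-2 (adjusted p = 0.0244), nor did edgeR on IL12-3 and M82 alone (adjusted p = 0.0212).

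A further 5 genes were called in 3 lines each, with their log2 differences: Solyc01g103070 in IL4-4 (1.09), IL12-3 (1.28) and IL6-2 (1.44), Solyc02g086080 in IL4-4 (0.87), IL6-2 (1.15) and IL3-5 (1.38), Solyc05g051860 in IL4-4 (1.17), IL12-3 (1.34) and IL6-2 (1.27), Solyc08g007060 in IL4-4 (-1.32), IL12-3 (-0.85) and IL3-5 (-0.95), and Solyc10g081570 in IL4-4 (1.02), IL12-3 (1.45) and IL6-2 (1.23). Solyc08g007060 fell in all 3 of its lines and the other genes rose in theirs.

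Over the 70 ranked lines the mean of the second set ran from -0.55 in IL12-3-1 to 1.01 in IL9-3-1, and that of the fourth set from -1.24 in IL2-1-1 to 0.34 in IL9-1-2. In the 5 lines that took no part in forming the sets, the second lay mostly above M82 and the fourth below it. All 20 genes of the second set had a positive log2 difference in IL4-4. So did 19 in IL12-3, 19 in IL6-2, 18 in IL2-5 and 19 in IL3-5. The medians were 1.06, 1.23, 1.08, 0.78 and 0.75, and 8, 8, 4, 0 and 0 genes were called higher. Over all genes tested the medians were 0.03, 0.02, 0.00, 0.00 and 0.00, and 8.94%, 7.94%, 4.44%, 2.99% and 2.13% were called higher. All 7 genes of the fourth set had a negative difference in each of the 5 lines. The medians were -2.03, -1.499, -1.46, -1.16 and -1.25, and 5, 3, 1, 0 and 1 genes were called lower. Of all genes tested, 2165 of 19591 were called lower in IL4-4, and 7.53%, 3.14%, 1.66% and 1.4% in the other lines. Within genotypes, the genes of these sets varied together (median correlations of 0.65 and 0.78). All comparisons also shared the M82 libraries, so like signs within a set are not separate observations. In the first set 5, 10, 6, 1 and 0 of 44 genes were called higher and 1, 1, 0, 0 and 1 lower. Its median ran from -0.24 in IL3-5 to 0.56 in IL12-3. The set plots show the second set above and the fourth set below the parents in nearly all libraries of the 5 lines.

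A few genes allowed the same segment to be read in a second line. For 5 of the 150, the farthest ranked line carried the gene's own segment and so did a line kept out of the ranking. All 5 differed from M82 in the same direction in both, and 4 were called in the line kept out. These genes were picked by a value that the ranking used, and both differences share the M82 libraries. The like directions are therefore a description and no test, and the matching share over all genes was not counted. Solyc02g083860 on chromosome 2 had 1.44, 0.807, 1.73 and 1.33 CPM in IL2-4 and 3.30, 1.56, 1.85 and 2.297 CPM in IL2-5 (log2 difference -3.27, SE 0.26, adjusted p = 2.06e-24, edgeR), against 8.86, 38.5 and 16.6 CPM in PENN and 28.6, 17.4, 22.9 and 18.6 CPM in M82. Solyc04g079720 on chromosome 4 had 6.77, 7.51, 6.97 and 4.31 CPM in IL4-3 and 4.51, 7.55, 9.37 and 6.56 CPM in IL4-4 (log2 difference -2.31, SE 0.22, adjusted p = 2.39e-18), against 36.4, 38.9 and 33.7 CPM in PENN and 35.1, 34.3, 30.6 and 39.9 CPM in M82. For both genes every library of the 2 lines lay below every parental library.

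Of the other 3, Solyc12g042910 had 10.6, 8.62, 7.59 and 5.94 CPM in IL12-2 and 12.26, 18.3, 15.7 and 7.62 CPM in IL12-3 (log2 difference -1.15, SE 0.35, adjusted p = 0.00835, edgeR), against 17.97, 26.1 and 27.0 CPM in PENN and 39.0, 26.3, 28.4 and 18.1 CPM in M82, a call lost when IL12-3 replicate 1, 3 or 4 or M82 replicate 1, 2 or 3 was left out (adjusted p up to 0.0523) or when libraries were scaled by RLE, where its adjusted p lay at the threshold. Solyc12g045030 rose in IL12-3 (log2 difference 1.45, SE 0.29, adjusted p = 3.61e-05) after a high level in IL12-2, and Solyc04g080560 was not called in IL4-4 (log2 difference -0.95, SE 0.43, adjusted p = 0.0687) after a low level in IL4-3. Of the 150 genes, 4, 10, 1, 10 and 1 lay inside the segments of IL4-4, IL12-3, IL6-2, IL2-5 and IL3-5, and 1, 4, 1, 1 and 0 of these were called, against 37.7%, 37.9%, 31.0%, 28.7% and 23.7% of all genes tested inside them.

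Of the 29 members called in at least 2 lines, 2 were called in opposite directions. The share over all genes tested was not counted, so this number cannot be called few or many. In both genes the low line was 1 that carries the gene. Solyc02g083860, low in IL2-5, had 49.1, 48.8, 62.1 and 62.1 CPM in IL4-4 (log2 difference 1.37, SE 0.19, adjusted p = 3.05e-09, edgeR) and 44.3, 26.0, 48.0 and 35.9 CPM in IL6-2 (log2 difference 0.78, SE 0.20, adjusted p = 0.00299), against 8.86, 38.5 and 16.6 CPM in PENN and 28.6, 17.4, 22.9 and 18.6 CPM in M82. IL4-4 exceeded IL2-5 by 4.64 log2 units (SE 0.25, adjusted p = 2.89e-45), and IL6-2 exceeded IL2-5 by 4.05 (SE 0.26, adjusted p = 1.06e-34). Its rise in IL6-2 was lost when IL6-2 replicate 1 or 3 or M82 replicate 2 or 4 was left out (adjusted p up to 0.0515), and with edgeR (adjusted p = 0.0250) or DESeq2 (adjusted p = 0.0164) on IL6-2 and M82 alone. Solyc12g042910 had 70.3, 71.3, 79.2 and 41.6 CPM in IL6-2 (log2 difference 1.21, SE 0.30, adjusted p = 0.0023), and IL6-2 exceeded IL12-3 by 2.36 (SE 0.34, adjusted p = 7.88e-09). Without IL6-2 replicate 3 or M82 replicate 4 its call in IL6-2 was lost (adjusted p = 0.0190 and 0.0193).

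The growth cycle was compared next, since it was held in common by all genotypes of a replicate number. With genotype in the model, 116 of the 150 genes (77.3%) differed between replicate numbers in edgeR's quasi-likelihood F-test, against 69.4% of all genes tested and 78.5% of genes at 5 CPM or more. The share was thus near that of genes at a similar level. The largest difference between the 4 numbers had a median of 0.30 log2 units in the transgressive genes and 0.20 over all genes. Its highest value was 2.83. Replicate 1 was the highest for 39.3% of the 150, replicate 2 for 22.7%, replicate 3 for 28.7% and replicate 4 for 9.33%, against 27.7%, 37.5%, 19.1% and 15.7% of all genes tested. In the second set, replicates 2, 3 and 4 lay a median of -0.30, -0.27 and -0.29 log2 units from replicate 1.

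The transgressive genes were spread over all chromosomes. Chromosomes 1 and 4 held 18 each and chromosome 2 held 16, with 12.0% on chromosome 4 against 8.48% of the other genes that met the limits, and 12.0% on chromosome 1 against 13.4%. Chromosome 12 held 15 (10% against 6.67%), and 1 gene was not placed. Only 2 pairs lay within 5 gene models of each other. Solyc12g049160 and Solyc12g049170, which are adjacent, went together over the 70 lines (r 0.97) and within genotypes (r 0.87), while Solyc11g066090 and Solyc11g066140 did not (r 0.28 and -0.02). Reads of adjacent similar genes may have been shared between them by the mapping, which was not tested.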

How the data were processed

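The authors mapped reads of 50 bp with BWA to a reference for each line, M82 sequence with S. pennellii sequence inside the segment, and deposited counts of mapped reads per gene and library without normalization (tool versions not given in the sources used here). 9 columns with no sample here were not used, nor were the fold changes and p-values of the authors' own comparisons, of which only the cis or trans label served, to place genes. The rule used library totals for CPM, with a pseudocount of 0.5.

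Counts were tested in R 4.3.3 with edgeR 4.0.16 (TMM, filterByExpr, quasi-likelihood fit of genotype to all 305 libraries, negative binomial dispersion 0.0235) and, as alternatives, DESeq2 1.42.0 and the settings in the closing section, of which those that leave out libraries standing apart or of low depth and the mean of log2 values were added after the data were seen. The fit was tested on simulated counts with known changes before use.

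Replicate numbers pair the libraries, since the methods make each a growth cycle and pool. Same-numbered libraries of different genotypes had a median correlation of deviations of 0.10, and others -0.03. Members and lists were chosen with earlier results of these data known. Named are the 15 genes of largest SD, the 10 called in most left-out lines, those at the limits, and the extreme lines of each. Solyc08g077340, Solyc01g107780, Solyc07g005240, Solyc12g042910, Solyc04g079720, Solyc12g045030, Solyc04g080560 and the adjacent pairs were added after their values were seen. The planned lists by annotated function and the cell type markers could not be applied without gene names.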

Additional observations from a re-analysis of the deposited data

Results flagged for a closer look

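Within groups of 4 libraries, 9 of the 98 groups whose values were checked held a library far from the other 3 (Dixon's test, in which chance marks about 1 in 20). For Solyc00g068970 these were the highest libraries of IL9-1-3 (8016 CPM), IL9-2 (3127 CPM) and IL7-3 (2739 CPM). The others were Solyc11g056480 in IL9-1-3 (highest, 62.1 CPM), Solyc07g041680 in IL2-1-1 (highest, 132 CPM), Solyc11g013110 in IL4-4 (highest, 104 CPM), Solyc07g052670 in IL9-2-5 (highest, 17.7 CPM), Solyc08g077340 in M82 (highest, 7.44 CPM) and Solyc01g007620 in M82 (lowest, 4.25 CPM).

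Lines of the same comparison differed in direction for 2 genes, by edgeR's test of the difference between the lines. For Solyc02g083860 the log2 difference was 4.64 between IL4-4 and IL2-5 (adjusted p = 2.89e-45) and 4.05 between IL6-2 and IL2-5 (adjusted p = 1.06e-34). For Solyc12g042910 it was 2.36 between IL6-2 and IL12-3 (adjusted p = 7.88e-09).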

How the results depend on the processing

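With medians of the libraries in place of means 99 of the 150 were chosen again, with a parental limit of 0.5 68, with a minimum of 10 CPM 87, and without replicate 3 or without replicate 4 89 and 94, and the other forms of the rule kept 103 to 148 (89 to 148 over all settings that leave out libraries). Genes called in IL4-4, IL12-3, IL6-2, IL2-5 and IL3-5, 33, 38, 21, 5 and 7 in the report, became 66, 86, 47, 45 and 41 against the mean of the 70 lines in place of M82, where 37.3%, 33.2%, 20.4%, 17.3% and 14.7% of all genes were called, and 62, 63, 41, 25 and 21 at an adjusted p of at most 0.05, where 33.9%, 27.9%, 16.3%, 12.05% and 8.897% of all genes were. DESeq2 on a line and M82 alone called 50 in IL4-4, 20 in IL2-5 and 31 in IL3-5 (18.8%, 6.55% and 6.13% of all genes), and edgeR on that pair alone 13 in IL2-5 and 26 in IL3-5 (4.62% and 6.12% of all genes), so in these fits the share of the 150 was above that of all genes. Leaving out 1 library gave 19 to 31 in IL4-4, 15 to 42 in IL12-3, 7 to 30 in IL6-2, 4 to 10 in IL2-5 and 4 to 7 in IL3-5. Over all genes the matching ranges were 10.7% to 18.8%, 7.36% to 16.8%, 3.01% to 9.65%, 2.82% to 7.36% and 1.66% to 3.52%. With the replicate block the counts were 42, 46, 26, 7 and 10, and no count moved by over 1.5 times. That fit called 24.1%, 18.3%, 9.42%, 5.97% and 4.74% of all genes. Over the named genes and lines, 268 alternative values kept the call, 39 lost it and 0 changed direction. Solyc12g006240 has no value in edgeR's fit of IL6-2 and M82 alone, where it did not pass the filter on low counts. The farthest line carried the gene's own segment for 27 to 38 of the same 150 genes, its libraries lay outside the parents for 95 to 117, and 87 to 132 genes differed between replicate numbers, over the settings run. Between 40.95% and 78.89% of all genes differed between replicate numbers in those settings. The causes were not tested. Depth limits the low values: a gene at 1 CPM has few reads in a library of median size. Replicates of a line were separate seedling pools of 1 stock, and p-values measure only the spread among them.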
